A study of Mus musculus with 29 samples.

Results

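The subunits of oxidative phosphorylation were compared between the mouse strains and treatments of a photothrombotic stroke study, as RNA counts of brain tissue. Members were all genes in the count files whose names begin as those of complex I (Nduf), complex II (Sdh), complex III (Uqcr), complex IV (Cox4 to Cox8) or ATP synthase (Atp5), together with the 13 protein genes of the mitochondrial genome. Names ending in -ps, given to pseudogenes, were left out, which removed 1 gene. The rule took 98 of 25746 genes, of which 85 are encoded in the nucleus and 13 in the mitochondrion. The nuclear members comprised 37 genes of complex I, 4 of complex II, 8 of complex III, 18 of complex IV and 18 of ATP synthase. Of the mitochondrial members, 7 belong to complex I, 1 to complex III, 3 to complex IV and 2 to ATP synthase. All 13 mitochondrial and 84 nuclear members passed the filter on low counts. The exception was Cox8c, a testis isoform, which was therefore not tested.

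Oxidative phosphorylation passes electrons from NADH and succinate along complexes I to IV of the inner mitochondrial membrane to oxygen, and ATP synthase uses the proton gradient that results. Complexes I, III, IV and V are assembled from proteins of both genomes, whereas complex II is encoded in the nucleus alone. Mitochondrial genes are transcribed as long polycistronic RNAs that are then cut into single messages, and neurons depend heavily on the pathway for synaptic and ionic work.

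The 29 brain samples came from mice of both sexes aged 3 months, and each is called a mouse here, although the NSG and the tacrolimus samples outnumber the animals that the methods give for RNA sequencing. Samples were tested as independent, and stroked and non-stroked samples of a strain, NSG included, may share animals. Non-stroked samples were 4 of WT mice on a C57BL/6 background, 3 of Rag2-/- mice, whose T and B cells do not mature, and 4 of NSG mice, a NOD strain that is without NK cells as well. Tissue around a photothrombotic stroke of the right sensorimotor cortex was taken 21 days after injury from 4 WT mice, 3 Rag2-/- mice and 3 NSG mice, and from WT mice given tacrolimus, an inhibitor of calcineurin, either acutely (WT-Tacr acute, 3 mice) or with a delay (WT-Tacr delayed, 5 mice). The study describes the non-stroked samples both as tissue of uninjured animals and as the side opposite the stroke, and untreated WT samples serve as controls of both tacrolimus groups, so that stroke in WT, WT-Tacr acute and WT-Tacr delayed mice is measured against the same 4 samples. The sample names carry the prefixes Imm2 and TF, called cohorts below. All non-stroked, Rag2-/- and NSG samples are Imm2 and all WT-Tacr delayed samples are TF, while stroked WT mice 1 and 2 and WT-Tacr acute mouse 1 are Imm2 and stroked WT mice 3 and 4 and WT-Tacr acute mice 2 and 3 are TF.

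Total counts per sample ran from 17789044 to 43403413. They separated by cohort without overlap, at 17789044 to 29928311 in TF and 32507506 to 43403413 in Imm2. Brain identity was clear from neuron markers, whose summed level was 7480 to 15400 CPM (counts scaled to a common library size, with TMM factors) over the groups, against 4.46 to 11.1 CPM for skeletal muscle markers. Some libraries stood apart. Gfap, an astrocyte gene, was at 267 and 189 CPM in WT-Tacr acute mice 1 and 2, against 928 CPM in mouse 3 and 765 to 1140 CPM in stroked WT mice. Ttr, a choroid plexus gene, lay above 100 CPM in WT non-stroked mice 4 and 5, NSG non-stroked mice 1, 2 and 3, stroked WT mice 3 and 4, stroked Rag2-/- mouse 1, stroked NSG mouse 3 and WT-Tacr delayed mice 1, 3, 4 and 5. Stroked NSG mouse 1 stood apart in the members themselves and is described with the NSG mice. In bulk tissue, fewer cells of a type and less RNA per cell cannot be told apart.

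The 13 mitochondrial members differed widely in counts. mt-Co1, mt-Cytb, mt-Nd1, mt-Nd2, mt-Nd5 and mt-Nd4 had between 56396 and 880724 counts in every sample. mt-Nd6, the one member on the other strand, followed with 882 to 12208 counts, and mt-Nd3 had 0 to 557. The catalytic and core genes mt-Co2, mt-Co3, mt-Atp6, mt-Atp8 and mt-Nd4l, which sit on the same polycistronic transcript as the abundant ones, had at most 22 counts in any sample. Per kilobase in non-stroked WT mice, mt-Co1 was at 12600 ± 1250 CPM (SD, n = 4) and mt-Co2 at 0.539 ± 0.109 CPM (SD, n = 4), although both encode catalytic subunits of the same complex.

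The reference genome holds a second, nuclear copy of part of the mitochondrial genome on mouse chromosome 1, which bears on how reads of these genes can be counted. In GENCODE M21 on GRCm38, Gm28661 on chromosome 1 matched mt-Co2 over 681 bp with 0 mismatches, Gm10925 matched mt-Atp6 over 678 bp with 0, Gm28437 matched mt-Co3 over 783 bp with 0 and Gm10222 matched mt-Nd4l over 294 bp with 0. Gm28438 matched mt-Nd3 (chrM:9459-9806) over 345 bp with 1 mismatch, written T3C for position 3 from the 5′ end of the gene. The first 33 bases of both are shown, with the base that differs in capitals, since mt-Nd3 separated the strains, as did mt-Nd4l:
mt-Nd3: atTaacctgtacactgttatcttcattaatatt
Gm28438: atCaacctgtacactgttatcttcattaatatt

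None of these copies is a row of the count files. Of all 50-base windows of each gene, the share that also occurs in another annotated gene was 100% for mt-Co2, 99.9% for mt-Co3, 99.5% for mt-Atp6, 98.8% for mt-Nd4l and 98% for mt-Nd3. It was 62.2% for mt-Nd4 and 51.1% for mt-Co1. It was 8.2% for mt-Nd2 and 7.6% for mt-Nd5, shared with genes elsewhere, and 0% for mt-Cytb, mt-Nd1, mt-Nd6 and mt-Atp8. mt-Atp8, which had few counts as well, lies between mt-Co2 and mt-Atp6. The search covered annotated transcripts only, so a copy outside annotated genes would not be seen. How reads with more than 1 match were counted is not given in the sources used here, and the part of the copies in these low counts was not tested. Levels of the shared genes are therefore not compared gene by gene with those of the others below. Medians, sums and means over all mitochondrial members include them.

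**Figure D1:**
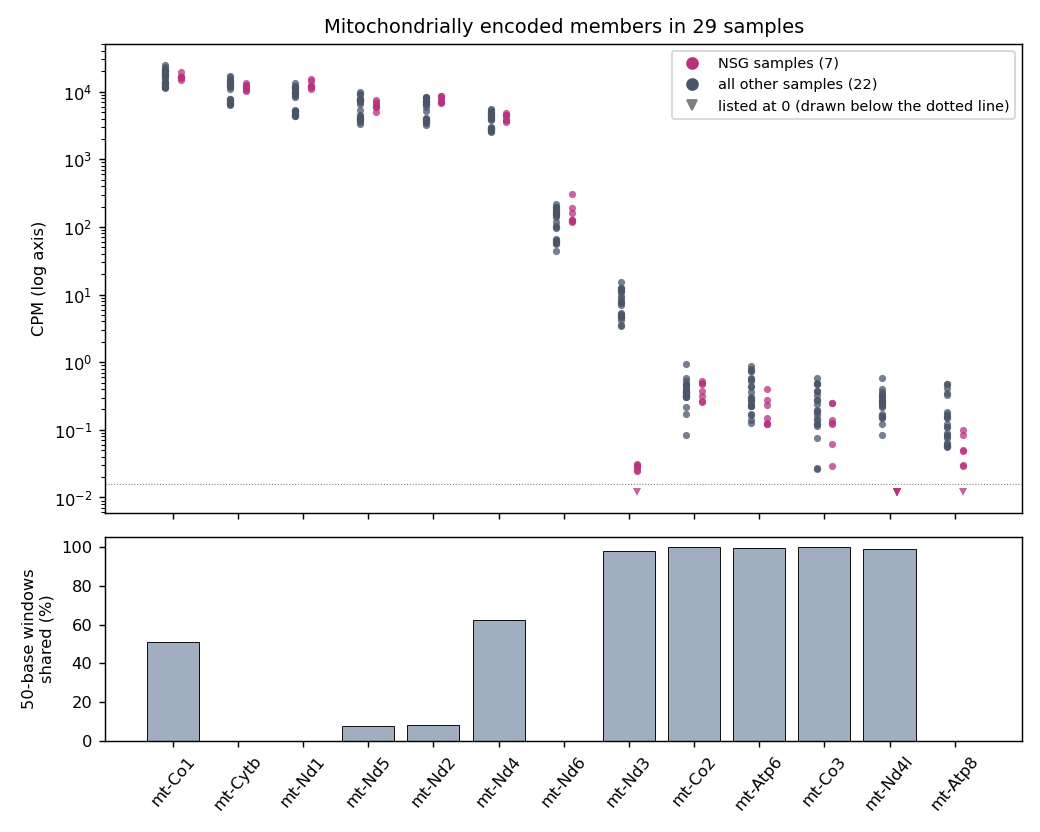
CPM of the 13 mitochondrial members in each of 29 samples on a log axis (top; NSG samples beside the other samples, triangles for a count of 0) and the percentage of their 50-base windows that occur in another annotated gene (bottom). Genes are ordered by mean CPM, and mt-Nd3 and mt-Nd4l are at or near 0 in all 7 NSG samples.

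Levels of nuclear members spanned a wide range. Per kilobase of exon in non-stroked WT mice, Cox8a (399 ± 42.7 CPM, SD, n = 4) and Cox6a1 (287 ± 23.0 CPM, SD, n = 4), both complex IV subunits, were the highest. They were followed by the catalytic ATP synthase subunit Atp5b at 184 ± 3.10 CPM and by the complex IV subunits Cox6b1 at 172 ± 9.43 CPM and Cox4i1 at 146 ± 8.49 CPM (SD, n = 4 each), with Atp5a1 between Cox6a1 and Atp5b. The ranges of Atp5b and Cox6b1, taken as 1 SD around the mean, overlapped. Among tissue isoforms, Cox6a2 was at 11.9 ± 1.63 CPM, above Atp5e at 10.0 ± 1.12 CPM, while others were lower, with Cox4i2 at 1.38 ± 0.232 CPM, Cox6b2 at 0.826 ± 0.197 CPM, Cox8b at 0.451 ± 0.412 CPM and Cox7b2 at 0.418 ± 0.153 CPM per kilobase (SD, n = 4 each).

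To ask whether the strains differ before injury, non-stroked NSG and Rag2-/- mice were compared with non-stroked WT mice. Almost no counts were assigned to mt-Nd3 in NSG mice and very few to Ndufs5, both of complex I. Cox6a2 and Cox7a2l, both named for complex IV, were lower as well, whereas Atp5e of ATP synthase was higher. mt-Nd3 and Ndufs5 share sequence with genes that are not rows of the count files, and the part of this was not tested. In NSG mice 3 of 84 nuclear members were higher, where 4.84% of all 17031 genes tested were, and 3 were lower, where 4.92% of all genes were. Of 13 mitochondrial members, 0 were higher and 2 were lower. The median log2 fold change was 0.06 for nuclear members and -0.21 for mitochondrial members, against 0.01 for all genes.

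mt-Nd3, a subunit in the membrane arm of complex I, had 3 counts in all 4 non-stroked NSG mice together and 1459 counts in the 4 WT mice. Its level was 9.0, 7.56, 11.2 and 12.1 CPM in WT mice and 0.0292, 0, 0.0283 and 0.0309 CPM in NSG mice. The level in WT was 470 times that in NSG, with an exact 95% interval of 161 to 2280 that covers counting error only. edgeR gave an adjusted p of 6.75e-12. In stroked tissue the NSG mice again had 3 counts in all, against 1256 in stroked WT mice, a ratio of 359 with an interval of 123 to 1740. All 22 samples of the other groups lay between 3.41 and 15.5 CPM, so the strains did not overlap. mt-Nd4l, its neighbour on the genome, had 0 counts in every NSG sample and 33 counts in the 4 non-stroked WT mice (adjusted p = 0.000182, edgeR). The exact 95% interval for the ratio of WT to NSG, for counting error only, began at 8.18. With the floor set at 3 counts over the NSG group the ratio was 10.6. Both genes are among those with copies on chromosome 1, and the 1 base that differs between mt-Nd3 and Gm28438 was shown above. Whether NSG reads were assigned to a copy was not tested. The 6 abundant mitochondrial members did not pass the test between these strains, with log2 fold changes from -0.24 (mt-Nd5) to 0.24 (mt-Nd1).

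Ndufs5 (chr4:123712710-123718202, GRCm38), an accessory subunit of complex I, was at 8.91, 9.71, 8.35 and 8.08 CPM in non-stroked WT mice and at 0.819, 0.736, 1.13 and 0.742 CPM in non-stroked NSG mice. Its log2 fold change was -3.35 ± 0.26 (SE), with an adjusted p of 5.16e-10 in edgeR. Over all samples, NSG mice ranged from 0.581 to 1.27 CPM and the other 22 samples from 7.11 to 19.0 CPM, without overlap. Of its 50-base windows, 31.1% also occur in BC002163, which is not a row of the count files, and the part of this in the difference was not tested.

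Cox6a2 (chr7:128205435-128206387), the heart and muscle isoform of subunit 6a that parvalbumin interneurons also express, was at 8.63, 6.45, 8.56 and 8.77 CPM in WT and 1.49, 1.78, 1.22 and 1.83 CPM in NSG mice. The log2 fold change was -2.36 ± 0.25 (SE; adjusted p = 2.01e-07, edgeR). Cox6a1, the isoform of most tissues, had a log2 fold change of 0.16 and did not pass the test. Pvalb, the interneuron gene, was at 47.5 to 54.9 CPM in WT and 19.5 to 52.5 CPM in NSG mice, and the summed level of the 5 parvalbumin interneuron markers was 834 to 883 CPM and 764 to 868 CPM, so that both overlapped. Skeletal muscle markers summed to 6.49 to 9.17 CPM in WT and 6.86 to 9.90 CPM in NSG mice.

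Cox7a2l (chr17:83501918-83517330), which takes part in joining complexes III and IV into supercomplexes, was at 91.0, 76.3, 87.3 and 77.7 CPM in WT and 39.0, 44.2, 41.5 and 47.5 CPM in NSG mice. All NSG values lay below all WT values (log2 fold change -0.95 ± 0.19, SE, adjusted p = 0.000972, edgeR). Atp5e (chr2:174461072-174464105), the small epsilon subunit of the ATP synthase stalk, went the other way, with 14.8, 18.4, 19.4 and 17.8 CPM in WT and 34.0, 42.8, 35.7 and 44.4 CPM in NSG mice (log2 fold change 1.15 ± 0.30, SE, adjusted p = 0.0124, edgeR). Atp5g2, one of 3 genes for subunit c, and Sdhb, the iron-sulfur subunit of complex II, were also higher in NSG, with log2 fold changes of 0.39 ± 0.11 and 0.38 ± 0.12 (SE) and adjusted p-values of 0.0200 and 0.0423. When each mouse was left out in turn, Sdhb lost its call in all 8 fits and Atp5g2 in 3 of 8, while Ndufs5, Cox6a2, Cox7a2l, Atp5e, mt-Nd3 and mt-Nd4l kept theirs in 8 of 8.

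**Figure D2:**
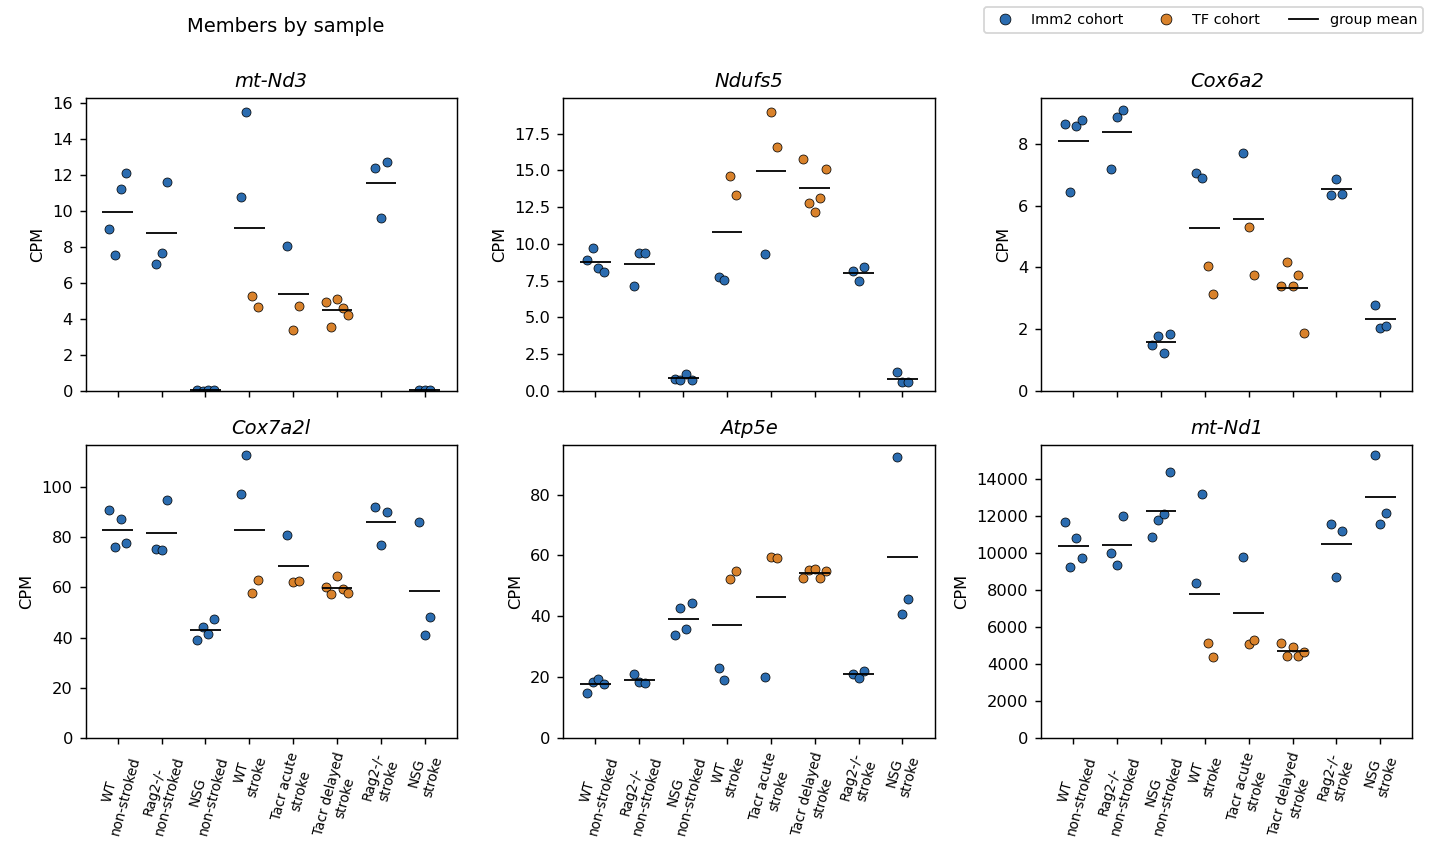
CPM of 6 members in every sample by group, coloured by cohort, with the group mean as a line. NSG mice are near 0 for mt-Nd3 and Ndufs5, and TF samples of stroked WT and WT-Tacr mice separate from Imm2 samples for Atp5e and mt-Nd1.

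No member passed the test between Rag2-/- and WT mice before stroke. Of 97 members, 0 were called by edgeR, where 0.00587% of all genes were called, and DESeq2 called 0. An unadjusted p below 0.05 was found for 1 member and for 349 of all 17031 genes. Median log2 fold changes were 0.04 for nuclear and -0.01 for mitochondrial members, and Ndufs5, for example, was at 8.62 ± 1.31 CPM (SD, n = 3) in Rag2-/- and 8.76 ± 0.720 CPM (SD, n = 4) in WT mice. The largest change among members with a mean of at least 1 CPM was in mt-Nd6, with a log2 fold change of 0.42.

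To ask how stroke alters the pathway, stroked tissue was compared with non-stroked tissue of the same strain. In WT mice 8 of 84 nuclear members were higher (15.2% of all genes were higher) and 0 were lower (11.6% of all genes were lower), so the share of members called was below that of all genes in both directions. No mitochondrial member was called by edgeR, 3 of 13 had an unadjusted p below 0.05 (6709 of all 17031 genes did), and DESeq2 called 1 as lower. The median log2 fold change was 0.11 for nuclear and -0.24 for mitochondrial members, against 0 for all genes. The 8 members were Atp5e and Atp5j2 of ATP synthase, Ndufa2, Ndufc1 and Ndufa7 of complex I, Sdhd of complex II, Uqcr10 of complex III and Cox7c of complex IV. Of 6 other subunits chosen for naming, none was called, with log2 fold changes of -0.06 for Ndufs1, 0.09 for Ndufv1, -0.12 for Sdha, -0.11 for Uqcrc1, 0.10 for Cox5a and 0.02 for Atp5b.

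For the genes of smallest p, the stroked mice were split by cohort. Atp5e was at 23.0 and 19.0 CPM in the stroked WT mice of Imm2 and at 52.2 and 54.8 CPM in those of TF, against 14.8 to 19.4 CPM in non-stroked WT mice (log2 fold change 1.08 ± 0.30, SE, adjusted p = 0.0103, edgeR). Ndufa2, an accessory subunit of complex I, was at 25.9 and 20.4 CPM in Imm2 and at 38.4 and 44.0 CPM in TF, against 14.3 to 19.9 CPM without stroke (log2 fold change 0.86 ± 0.25, SE, adjusted p = 0.0119). Both genes thus lay far higher in TF than in Imm2 mice of the same group. Within Imm2 alone, the log2 fold change was 0.26 for Atp5e (adjusted p = 0.522), 0.40 for Ndufa2 (adjusted p = 0.341) and 0.28 for Atp5j2 (adjusted p = 0.448), and 0 members were called by edgeR. With the cohort as a covariate, 0 were called as well. Without stroked WT mouse 4 or mouse 3, both TF, 0 and 1 members were called, and without mouse 1 or mouse 2, 13 and 18. The share of all genes called for stroke in these alternative fits is not given here. Their counts are therefore not read as results about the members.

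Abundant mitochondrial members showed the opposite pattern by cohort. mt-Nd1, a core subunit of complex I, was at 8390 and 13200 CPM in stroked WT mice of Imm2 and at 5150 and 4400 CPM in those of TF, against 9270 to 11700 CPM in non-stroked WT mice. mt-Cytb, the mitochondrial subunit of complex III, was at 11000 and 16900 CPM in Imm2 and at 7800 and 6630 CPM in TF, against 12000 to 15100 CPM without stroke. For both genes, 1 Imm2 mouse lay below and 1 above the non-stroked range, and both TF mice lay below either.

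A direct comparison of the cohorts, made after the data were seen, used the cohort term of a fit with group and cohort, which rests on the stroked WT and WT-Tacr acute mice. In TF, 22 of 84 nuclear members were higher (13.2% of all genes were) and 8 were lower (14.4% of all genes were). Of 13 mitochondrial members, 8 were lower and 1 was higher. mt-Nd1 (-1.08 ± 0.14), mt-Nd5 (-0.91 ± 0.15), mt-Cytb (-0.90 ± 0.13), mt-Nd2 (-0.81 ± 0.13), mt-Nd4 (-0.70 ± 0.13) and mt-Co1 (-0.55 ± 0.13) were lower on the log2 scale (± SE), with adjusted p-values of 0.00314 or less in edgeR. Among nuclear members, Atp5e (1.43 ± 0.18) and Ndufc1 (1.35 ± 0.19) had the largest increases, and Cox6a2 (-0.88 ± 0.19), Cox8a (-0.65 ± 0.16) and Cox7a2l (-0.63 ± 0.16) the largest decreases. Neuron markers also differed by cohort in stroked WT mice, at 12500 and 14300 CPM in Imm2 and 9600 and 9210 CPM in TF, as did Ttr, at 3.05 and 4.31 CPM against 134 and 223 CPM. In WT-Tacr acute mice the separation was less clear. Neuron markers were at 14700 CPM in the Imm2 mouse and at 13300 and 9540 CPM in the TF mice. Ttr was at 1.24 CPM against 1.37 and 9.54 CPM. Total counts were lower in every TF sample than in any Imm2 sample. The part of neuron markers, Ttr and total counts in the cohort difference was not tested.

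Summed over the pathway, mitochondrial members took up 5.44 to 6.50% of all counts in non-stroked WT mice, 5.54 to 6.39% in non-stroked Rag2-/- mice and 5.24 to 6.23% in non-stroked NSG mice. Nuclear members took up 0.618 to 0.687%, 0.652 to 0.707% and 0.650 to 0.726%. The log2 ratio of mitochondrial to nuclear counts was 3.17 ± 0.15 (SD, n = 4) for WT mice, 3.13 ± 0.04 (SD, n = 3) for Rag2-/- mice and 3.05 ± 0.12 (SD, n = 4) for NSG mice. As a difference of mean log2 CPM over members, in which genes of few counts weigh as much as the others, it was 0.738 ± 0.115, 0.719 ± 0.072 and -0.044 ± 0.163 (SD, same n), and NSG mice, with mt-Nd3 and mt-Nd4l at or near 0, did not overlap the other strains. After stroke the mitochondrial share was 4.90 and 7.46% in the Imm2 and 4.14 and 3.54% in the TF mice of the WT group. In WT-Tacr acute mice it was 5.57% in the Imm2 mouse and 3.47 and 3.99% in the TF mice, and in WT-Tacr delayed mice, all TF, 3.46 to 3.99%. Rag2-/- and NSG mice, all Imm2, had 5.28 to 7.34% and 5.62 to 6.23% after stroke. Every TF sample lay below every Imm2 sample, whatever its treatment.

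**Figure D3:**
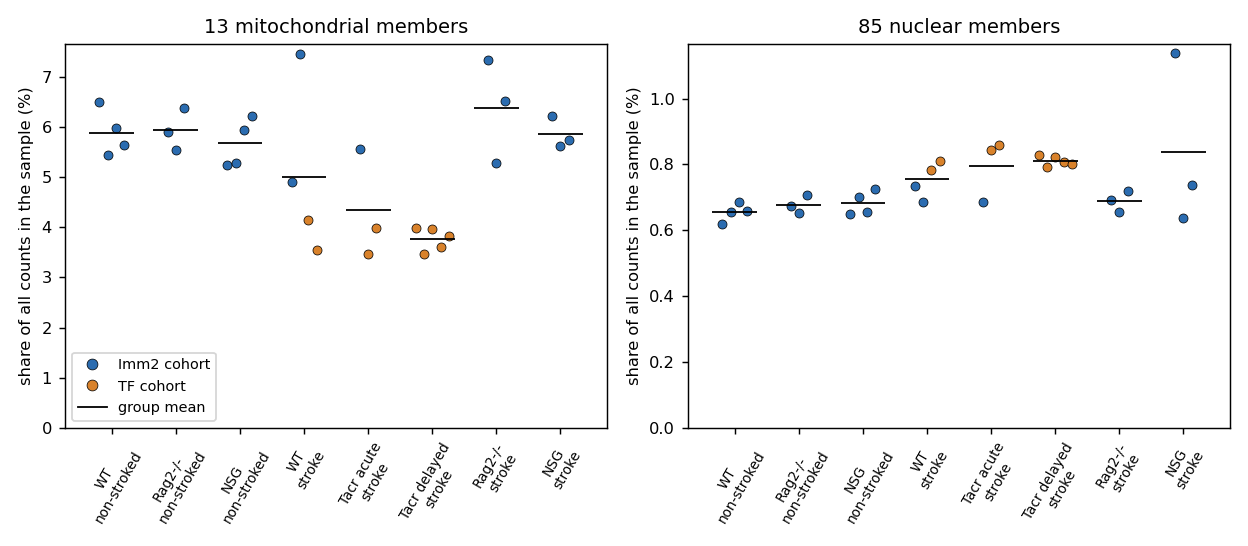
Share of all counts (%) taken by the 13 mitochondrial and the 85 nuclear members in each sample, by group and cohort, with the group mean as a line. TF samples hold 3.46 to 4.14% mitochondrial counts and Imm2 samples 4.90 to 7.46%, and stroked NSG mouse 1 has the highest nuclear share, 1.14%.

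Under tacrolimus given acutely, 12 nuclear members were higher after stroke (6.18% of all genes were) and 0 were lower (2.36% of all genes were). No mitochondrial member was called by edgeR, although 9 of 13 had an unadjusted p below 0.05 (4701 of all 17031 genes did), and DESeq2 called 2 as lower. The median log2 fold change was 0.24 for nuclear and -0.45 for mitochondrial members, against 0.01 for all genes. Ndufa2 had the smallest p, at 20.8 CPM in the Imm2 mouse and 48.5 and 48.7 CPM in the TF mice (log2 fold change 1.15 ± 0.26, SE, adjusted p = 0.0124, edgeR). Atp5e was at 20.1 CPM in the Imm2 mouse and at 59.5 and 59.1 CPM in the TF mice (log2 fold change 1.39 ± 0.32, adjusted p = 0.0125). Ndufc1, an accessory subunit of complex I, was at 9.71, 28.6 and 29.6 CPM in the same order (1.28 ± 0.31, adjusted p = 0.0170). Ndufa4, named for complex I and also found with complex IV, was higher too (0.77 ± 0.22, adjusted p = 0.0316). The Imm2 mouse thus stayed near the non-stroked range of 14.8 to 19.4 CPM for Atp5e and 8.40 to 9.97 CPM for Ndufc1. With the cohort as a covariate, or within Imm2, where this arm is 1 mouse whose spread is taken from the other groups, 0 members were called. Without WT-Tacr acute mouse 2 or mouse 3 the count was 0 too, and without mouse 1 it was 38. The share of all genes called in these alternative fits is not given here, so the counts cannot be set against it. In mice 1 and 2, which had the low Gfap values given above, microglia and macrophage markers summed to 328 and 286 CPM, against 744 CPM in mouse 3.

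Under delayed tacrolimus, 27 nuclear members were higher (27.6% of all genes were) and 7 were lower (27.6% of all genes were). Of 13 mitochondrial members, 8 were lower and 3 were higher. Median log2 fold changes were 0.13 for nuclear and -0.69 for mitochondrial members, against 0.004 for all genes. With scaling to total counts the nuclear median was 0.366. Other short genes moved as well, with a median of 0.171 for 2050 other genes with exons of over 1000 and up to 2000 bp against 0.185 for 32 nuclear members of that length, and 0.272 for 368 other genes against 0.036 for 16 members at over 600 and up to 1000 bp, and the part of length was not tested. By complex, 12 members of complex I, 2 of complex II, 3 of complex III, 5 of complex IV and 5 of ATP synthase were higher among nuclear genes, and 2 of complex I, 4 of complex IV and 1 of ATP synthase were lower. Since all delayed mice are TF and all non-stroked mice are Imm2, stroke, treatment and cohort cannot be told apart here. With the cohort as a covariate, 0 members were called by edgeR, and the share of all genes called for this comparison in that fit is not given here.

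mt-Nd1 in the 5 delayed mice was at 5140, 4420, 4910, 4450 and 4650 CPM (log2 fold change -1.14 ± 0.22, SE, adjusted p = 0.000157, edgeR). mt-Nd2 (-1.03 ± 0.18), mt-Nd5 (-1.01 ± 0.21), mt-Cytb (-0.95 ± 0.19), mt-Nd4 (-0.69 ± 0.16), mt-Co1 (-0.67 ± 0.15), mt-Nd3 (-1.16 ± 0.27) and mt-Nd6 (-1.34 ± 0.27) were lower as well. The 3 that were higher, mt-Co3 (2.16), mt-Atp8 (1.31) and mt-Atp6 (1.12), are among the genes with at most 22 counts in any sample. Atp5e was at 52.7, 55.2, 55.5, 52.5 and 54.8 CPM (1.62 ± 0.29, adjusted p = 7.10e-05), Ndufa2 at 45.8, 44.6, 42.8, 41.8 and 43.7 CPM (1.31 ± 0.24, adjusted p = 7.89e-05) and Ndufc1 at 27.3, 22.3, 23.2, 23.9 and 24.7 CPM (1.38 ± 0.28, adjusted p = 0.000255).

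Paralogues of complex IV and of subunit c of ATP synthase differed in direction under delayed tacrolimus. Cox6a2 was lower, at 3.38, 4.16, 3.39, 3.76 and 1.88 CPM against 6.45 to 8.77 CPM in non-stroked WT mice (log2 fold change -1.28 ± 0.23, SE, adjusted p = 5.73e-05, edgeR). Pvalb was at 13.9 to 32.8 CPM in these mice and 47.5 to 54.9 CPM in the controls, and the 5 parvalbumin interneuron markers summed to 689 to 746 CPM against 834 to 883 CPM. In WT-Tacr acute mouse 2, also TF, Pvalb was at 63.1 CPM and the 5 markers summed to 957 CPM, both above the controls. Cox6a2 was at most 5.29 CPM in any TF sample. The part of these interneurons in Cox6a2 was not tested. Cox8a (-0.63 ± 0.17) and Cox7a2l (-0.47 ± 0.17) were lower, and Cox4i1 (0.36 ± 0.14), Atp5g1 (0.50 ± 0.13) and Atp5g3 (0.50 ± 0.14) were higher. Cox6b2, an isoform best known from testis, was at 1.57, 2.20, 2.86, 3.49 and 2.63 CPM against 0.680 to 1.17 CPM (1.47 ± 0.28, adjusted p = 0.000138). Cox8b, an isoform of heart and muscle, was at 0.241, 0.126, 0.869, 0.815 and 1.19 CPM against 0.0272 to 0.345 CPM (1.92 ± 0.72, adjusted p = 0.0273). Ttr was at 553, 5.39, 776, 766 and 738 CPM in the delayed mice, in the same order, and 0.871 to 730 CPM in the controls, and its part in Cox8b and Cox6b2 was not tested. Cox4i2, Cox6a1, Cox6b1, Cox7a1, Cox7a2, Cox7b, Cox7b2, Ndufa4l2 and Atp5g2 did not pass the test in this comparison. When each mouse was left out in turn, the call was kept in 2 of 9 fits for Cox4i1, 4 of 9 for Cox8b and mt-Atp8, 5 of 9 for mt-Atp6 and 7 of 9 for Cox7a2l.

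**Figure D4:**
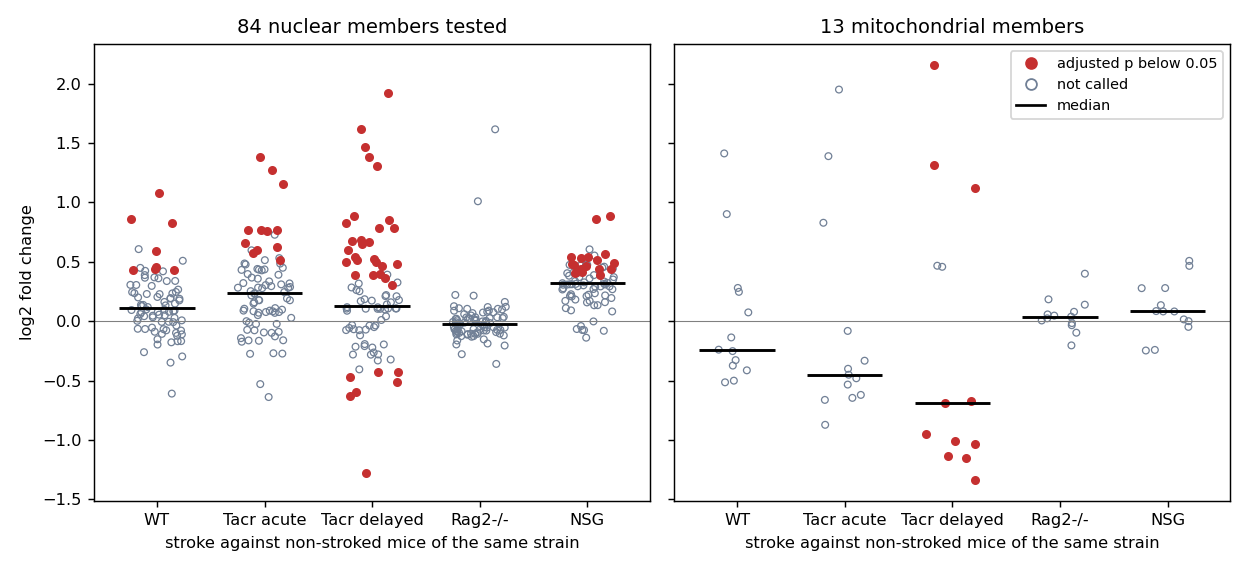
log2 fold change of stroked against non-stroked mice for the 84 nuclear members tested and the 13 mitochondrial members, in 5 groups; filled points passed an adjusted p below 0.05 and lines are medians. Nuclear medians run from -0.02 in Rag2-/- to 0.32 in NSG mice, and 11 of 13 mitochondrial members are filled under delayed tacrolimus, where all stroked mice are TF.

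In Rag2-/- mice, where both groups are Imm2, no member was called by edgeR after stroke, where 6.71% of all genes were higher and 1.53% were lower. An unadjusted p below 0.05 was found for 1 member and for 3691 of all 17031 genes. The median log2 fold change was -0.02 for nuclear and 0.04 for mitochondrial members. mt-Nd1 was at 11600, 8730 and 11200 CPM after stroke and at 10000, 9380 and 12000 CPM without it. The member with a mean of at least 1 CPM that moved farthest was Cox6b2, at 2.47, 1.55 and 1.59 CPM after stroke against 0.821, 0.790 and 1.18 CPM (log2 fold change 1.01 ± 0.34, SE, adjusted p = 0.0643), and DESeq2 called this 1 gene (adjusted p = 0.0416). Cox8b was at 1.06 CPM in the stroked mouse with 1400 CPM of Ttr and at 0.111 and 0.0613 CPM in those with 1.52 and 2.57 CPM. In non-stroked NSG mouse 1, by contrast, Ttr was at 1060 CPM, while Cox8b was at most 0.432 CPM in any NSG sample. The part of choroid plexus tissue in Cox8b was not tested.

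In NSG mice 17 nuclear members were higher after stroke (13% of all genes were) and 0 were lower (8.89% of all genes were). No mitochondrial member was called by edgeR or DESeq2, and 0 of 13 had an unadjusted p below 0.05 (6116 of all 17031 genes did). The median log2 fold change was 0.32 for nuclear members, of which 77 of 84 were positive, 0.08 for mitochondrial members and 0.03 for all genes. Atp5o of ATP synthase is listed under 2 overlapping gene IDs on chromosome 16 and counts 2 times among the 17. Ndufb7 and Ndufa5, accessory subunits of complex I, and Uqcrh, the hinge subunit of complex III, had log2 fold changes of 0.54 ± 0.14, 0.56 ± 0.16 and 0.54 ± 0.16 (SE) and adjusted p-values of 0.00983, 0.0142 and 0.0164 in edgeR.

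The 17 called members were each highest, among all NSG samples, in 1 stroked mouse. Uqcrh was at 237 CPM in stroked NSG mouse 1 and at 106 and 121 CPM in mice 2 and 3, against 103 to 113 CPM in non-stroked NSG mice. Ndufb7 was at 80.1, 38.1 and 45.2 CPM, against 32.7 to 40.4 CPM, and Cox7a1 at 2.10, 1.11 and 1.01 CPM, against 0.660 to 0.877 CPM. Cox7a1 is the heart and muscle isoform of subunit 7a, and its log2 fold change was 0.86 ± 0.26 (SE, adjusted p = 0.0209, edgeR). Cox6b2 was at 2.81, 1.61 and 2.36 CPM, against 0.773 to 1.67 CPM (0.89 ± 0.30, adjusted p = 0.0374). Among the 81 nuclear members with a mean of at least 1 CPM, all 81 lay above the mean of the non-stroked mice in mouse 1 (median log2 difference 0.87), 10 in mouse 2 (median -0.12) and 67 in mouse 3 (median 0.10). Without mouse 1, 0 members were called and the median of nuclear members was -0.02, and without mouse 2 or mouse 3, 52 and 31 were called. Without non-stroked NSG mouse 1, 2 or 3, 6, 6 and 4 were called. Cox6b2 kept a log2 fold change of 0.69 or more in each of these fits, and its call in 2 of 7. The share of all genes called in these fits is not given here.

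Short genes outside the pathway moved in the same mouse. In stroked NSG mouse 1, the 2541 other genes with exons of up to 2000 bp in all lay at a median of 0.61 above the non-stroked NSG mean on the log2 scale, and the 14380 longer ones at -0.01. In mice 2 and 3 the short genes lay at 0.04 and 0.13. Of the 84 nuclear members, 55 are in the short class, and the part of length was not tested. mt-Nd1 was at 15300, 11600 and 12200 CPM in the 3 mice, against 10900 to 14400 CPM without stroke, and mt-Co1 was at 16200 CPM in each. Pvalb was at 96.2 CPM in mouse 1 and at 34.4 and 43.0 CPM in mice 2 and 3.

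**Figure D5:**
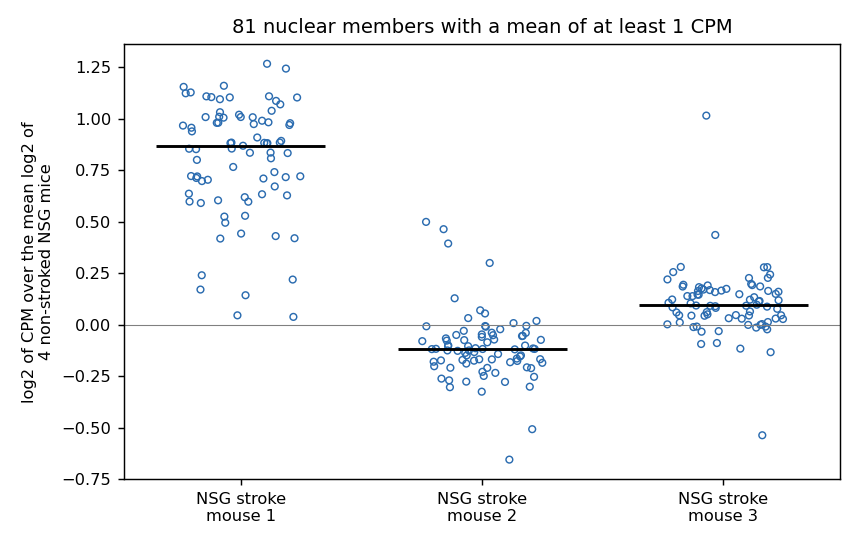
log2 CPM of 81 nuclear members in each stroked NSG mouse, relative to the mean of 4 non-stroked NSG mice, with the median as a line. The median is 0.87 in mouse 1, -0.12 in mouse 2 and 0.10 in mouse 3.

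Whether the strains or treatments differ in their response was tested directly. The stroke response of NSG minus that of WT mice called 0 of 97 members in edgeR (0.0294% of all genes), and DESeq2 called 0. An unadjusted p below 0.05 was found for 13 members and for 2167 of all 17031 genes. The response of Rag2-/- minus that of WT mice called 0 members (0% of all genes), with 1 at an unadjusted p below 0.05 (713 of all genes were) and 0 in DESeq2. Among members with a mean of at least 1 CPM, Cox6a2 had the largest difference in NSG (log2 1.16, adjusted p = 0.202, edgeR) and Atp5e in Rag2-/- (log2 -0.95, adjusted p = 0.950). Stroked WT mice are from both cohorts and the others from Imm2, and within Imm2 these differences were 0.75 (adjusted p = 0.508) for Cox6a2 and -0.12 (adjusted p = 0.993) for Atp5e, with 0 members called in either comparison. Between stroked WT-Tacr acute and stroked WT mice 0 members were called (0% of all genes), and 0 in DESeq2. An unadjusted p below 0.05 was found for 1 member, mt-Nd3 (log2 -0.74, adjusted p = 0.339, edgeR), and for 2168 of all genes. Between WT-Tacr delayed and acute mice, 1 nuclear member was higher (10.4% of all genes were) and 1 nuclear and 1 mitochondrial member were lower (9.96% of all genes were). They were Cox6b2 (log2 fold change 0.87 ± 0.30, SE, adjusted p = 0.0440), Cox6a2 (-0.75 ± 0.25, adjusted p = 0.0336) and mt-Nd6 (-0.86 ± 0.29, adjusted p = 0.0373). Within the TF cohort alone, 0 of these 3 were called. The share of all genes called within TF or within Imm2 is not given here.

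Other genes of mitochondrial energy metabolism were counted in 7 lists, to be read against the shares of all genes called that were given above for each comparison (15.2% higher and 11.6% lower after stroke in WT, 27.6% each way under delayed tacrolimus). Shares higher and lower were 13% and 8.89% in NSG, 6.71% and 1.53% in Rag2-/- and 6.18% and 2.36% in acute mice. Between non-stroked NSG and WT mice they were 4.84% and 4.92%. After stroke in WT mice, 0 of 15 complex I assembly factors, 2 of 32 assembly factors of the other complexes, 1 of 29 genes of mitochondrial transcription and RNA handling, 0 of 13 regulators of mitochondrial biogenesis, 2 of 14 enzymes of the TCA cycle, 3 of 18 glycolytic enzymes and 0 of 16 other mitochondrial membrane genes were higher. In the same order, 0, 5, 0, 2, 2, 0 and 2 were lower. Aldoa is listed under 2 gene IDs and counts 2 times among the 18 glycolytic enzymes. In NSG mice 0, 2, 2, 1, 1, 2 and 4 were higher and 0, 0, 0, 2, 0, 0 and 0 lower, with stroked mouse 1 included. In Rag2-/- mice 1 enzyme of the TCA cycle and 1 glycolytic enzyme were higher and no gene of these lists was lower, as tested by edgeR. Under delayed tacrolimus, where cohort and stroke cannot be told apart, 3, 7, 5, 1, 2, 7 and 2 were higher and 1, 8, 2, 5, 7, 6 and 5 lower, and under acute tacrolimus 1, 3, 0, 1, 1, 4 and 0 were higher and 0, 0, 0, 1, 0, 0 and 0 lower. Between the non-stroked strains, 1 complex I assembly factor and 2 other assembly factors were higher in NSG mice, and 2 complex I assembly factors, 2 other assembly factors and 3 glycolytic enzymes were lower.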

How the data were processed

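The authors deposited raw read counts per Ensembl gene for 29 samples. Per the study's methods, libraries were stranded and polyA-selected, and reads were mapped and counted by a core facility. Aligner, counter, build, annotation and strand setting are not given in the sources used here. Names and positions came from GENCODE M21 on GRCm38, where 25712 IDs were found. Groups came from the labels. Counts were tested in R 4.3.3 with edgeR 4.0.16 (TMM, filterByExpr, quasi-likelihood fit of 8 groups, 17031 genes). A gene was called at a Benjamini-Hochberg adjusted p below 0.05, with no fold minimum. Totals per sample were 17789044 to 43403413. CPM used TMM-scaled library sizes, and the SE is the absolute log2 fold change over the square root of F. The fits were tested on simulated data without cohort or strain differences. They recovered 88 of 100 genes changed 2-fold and 99 of 100 changed 4-fold in stroked WT mice, with 6 false calls. How the fits behave with such differences cannot be read from this. Shares of 50-base windows came from the longest GENCODE transcript of each gene. Intervals cover counting error only. The labels do not say whether replicates differ beyond being separate samples, so p-values measure the spread between these samples. Members and lists were chosen with earlier results of these data known. Named were all mitochondrial members, 1 core gene or 2 per complex, the paralogues of complex IV and subunit c, and per comparison the 3 called members of smallest p in each direction, those called with an absolute log2 fold change over 1 and the largest change at a mean of at least 1 CPM. Alternatives were RLE, total counts, nuclear scaling, other filters, cohort, DESeq2 1.42.0 and leaving out samples.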

Additional observations from a re-analysis of the deposited data

Results flagged for a closer look

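Groups of 4 or 5 samples were searched for a sample far from the rest, by the gap to its nearest neighbour as a fraction of the range, over 164 sets of values. Chance flags about 1 in 20 groups, and 4 were flagged. Ndufv1, a core subunit of complex I, was at 99.5 CPM in non-stroked WT mouse 5 and at 114 to 115 CPM in the other 3 (0.889 of the range). Cox6a2 was at 6.45 CPM in non-stroked WT mouse 3 and at 8.56 to 8.77 CPM in the others (0.912). mt-Nd3 was at 0 CPM in non-stroked NSG mouse 2 and at 0.0283 to 0.0309 CPM in the others (0.916), a difference of 1 count per mouse. Cox8a was at 180 CPM in WT-Tacr delayed mouse 1 and at 152 to 157 CPM in the other 4 (0.824). Groups of 3, which include the stroked NSG mice, were not searched.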

How the results depend on the processing

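Beside the calls in the main fits (8 members for stroke in WT, 12 in WT-Tacr acute, 45 in WT-Tacr delayed, 0 in Rag2-/- and 17 in NSG mice, 8 between non-stroked NSG and WT and 3 between WT-Tacr delayed and acute mice), alternatives gave other counts. A minimum absolute log2 fold change of 1 left 1, 3 and 14 calls in WT, acute and delayed mice, 0 in NSG, 5 between strains and 0 between delayed and acute. Scaling to total counts gave 22, 27 and 68 calls in WT, acute and delayed mice and 1 between delayed and acute, with a nuclear median of 0.366 in delayed mice. Without a filter stroke in WT gave 5. With the cohort as a covariate the counts were 0, 0 and 0 in WT, acute and delayed mice, 1 in Rag2-/-, 28 in NSG and 0 between delayed and acute, and the mitochondrial median was -0.008 in acute and -0.049 in delayed mice. In that fit Atp5g3 (-0.054), Ndufa4 (-0.001), Cox7a2l (0.159), Cox8a (0.017), mt-Atp8 (-0.083), mt-Nd3 (0.086) and mt-Nd4 (0.01) changed sign in delayed mice, where the term comes from the other groups alone. Imm2 samples alone gave 0 in WT, 0 in acute, 1 in Rag2-/- and 10 in NSG mice, and TF samples alone, chosen after seeing the data, 0 between delayed and acute. A fit of the 2 groups compared gave 14 in WT, 0 in acute, 1 in Rag2-/-, 0 in NSG and 0 between delayed and acute, and DESeq2 gave 20 in acute, 1 in Rag2-/- and 5 between delayed and acute. The log2 ratio of mitochondrial to nuclear counts, which differed by -0.49, -0.74 and -0.95 after stroke in WT, acute and delayed mice, differed by -0.078 and -0.143 in WT and acute mice within Imm2 (chosen after seeing the data) and by -0.235, -0.415 and -0.488 in WT, acute and delayed mice as a mean of log2 CPM. Leaving out 1 sample at a time gave 0 to 18 calls in WT, 0 to 38 in acute, 37 to 43 in delayed and 0 to 52 in NSG mice, 6 to 8 between strains and 0 to 5 between delayed and acute. The nuclear median then ran from -0.017 to 0.506 in NSG mice and from -0.115 to 0.352 for NSG minus WT, both lowest without stroked NSG mouse 1. The lowest counts were without stroked WT mouse 4 and, with 1 call, mouse 3, without acute mouse 2 or 3, and without stroked NSG mouse 1. Leaving out non-stroked WT mouse 1, 3 or 5 gave 3 calls each in WT and 2, 3 and 3 in acute mice, leaving out non-stroked NSG mouse 1, 2 or 3 gave 6, 6 and 4 in NSG mice, and between delayed and acute mice leaving out acute mouse 1, 2 or 3 gave 0, 0 and 5 and leaving out delayed mouse 3, 4 or 5 gave 0, 1 and 0. Same-numbered non-stroked mice did not deviate together (correlations of -0.258 to 0.108), and a replicate block gave 9 calls between NSG and WT and 0 between Rag2-/- and WT, against 8 and 0 with the same samples and no block. Causes of these changes were not tested. Shares of all genes called are given for the main fits only. Whether counts in the alternatives moved with those of all genes can therefore not be read here. RLE scaling and scaling to nuclear genes kept every named call. No value came from cohort-only fits that lack a group.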
